A study of Mus musculus with 59 samples.

Results

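A set of 131 genes whose RNA was higher within 3 h of a thyroid hormone (TH) injection, and at every later time, was described in mouse brown adipose tissue (BAT). The genes were chosen from 20 wild-type (WT) mice made hypothyroid with propylthiouracil (PTU), a drug that blocks TH synthesis. Of 55341 listed genes, the 9212 with a mean raw count of 50 or more in those mice, mitochondrially encoded (mt-) genes apart, were eligible. For each gene the level was log2(CPM + 0.5), CPM being the usual library-size-scaled count, here on totals without mt- genes, and a gene was taken when its group mean exceeded that of the PTU group by 0.8 or more at all 4 times, 3, 6, 12 and 24 h. The 131 genes made up 1.42% of the eligible genes. These WT values chose the genes, so they are given as a description with no test of change.

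TH enters cells through membrane transporters and acts mainly through nuclear receptors, encoded by Thra and Thrb, which sit on DNA as dimers with retinoid X receptors and activate transcription when they bind T3. BAT is the heat-producing fat of mammals. Its mitochondria carry uncoupling protein 1 (UCP1), which lets protons return without making ATP, and its deiodinase DIO2 converts T4 into the active T3. Cold activates the tissue through sympathetic nerves, and a fat-rich diet loads it with lipid.

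RNA-seq counts came from 59 male C57BL/6J mice aged 8 to 12 weeks, 1 library for each mouse, in 3 experiments. In the TH experiment, WT mice received PTU alone (n = 4) or PTU and then TH for 3, 6, 12 or 24 h (n = 4 each), and mice of a genotype labelled BATKO received PTU alone (n = 5) or PTU and TH for 24 h (n = 5); per the methods of the study PTU was given in food for 2 weeks and TH was a single intraperitoneal injection of T3 with T4. In the temperature experiment, labelled with 24 h of cold, control (CTRL) mice were kept at 30 °C (n = 4) or 4 °C (n = 3), as were BATKO mice (n = 5 and 4). In the diet experiment, labelled with 3.5 days, CTRL mice had chow (n = 4) or a diet labelled HFD (n = 4), as did BATKO mice (n = 2 and 3), and neither of these experiments used PTU or TH by its labels. The gene changed in BATKO mice, its promoter and the genotype of CTRL mice are not given in the sources used here, so BATKO is used as a label only.

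Libraries held 7612059 to 18073627 counts, of which 39.2 to 55.7% fell on mt- genes. All 10 brown adipocyte markers examined, Ucp1 among them, were detected in every group. The summed CPM of 8 skeletal muscle markers ran from 1.52 in a CTRL mouse at 30 °C to 16543 in a BATKO mouse at 30 °C. In WT mice it was 120 to 1270 under PTU, 6.24 to 444 at 3 h, 501 to 3260 at 6 h, 6.60 to 556 at 12 h and 515 to 2152 at 24 h, so the 3 h and 6 h mice did not overlap, and its part in the WT values was not tested. Among BATKO mice of the TH experiment, 3 libraries did not sit with their label: the PTU mouse numbered 4 had the members' levels of the TH mice numbered 7, 8 and 9, and the TH mice numbered 10 and 15 had those of the other PTU mice. They were kept under their labels, and the members' median and Slco4a1 are given with the results without each of them. Whether labels were exchanged among these 3 was not tested, and every BATKO value of the TH experiment holds for the labels as given. The 3 experiments were deposited as separate tables and each was scaled on its own, so levels set side by side across experiments carry that limit.

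Of the 131 genes, 102 had a RefSeq promoter record (GRCm38.p6, 250 bases before the start and 50 after). The motif classically bound by TH receptors, a direct repeat of AGGTCA with 4 bases between (DR4, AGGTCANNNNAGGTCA, both strands), was in none of these 102 windows and in 4 of the 27025 windows of all genes (0.0148%). The single hexamer AGGTCA, read on both strands, was in the 250 upstream bases of 21 of the 102 genes (20.6%) and of 4260 of the 27025 genes (15.8%). A hexamer is a match of letters and not a shown site, and its absence from a window of this length says nothing on binding elsewhere. The DR4 search took exact matches only, and at 0.0148% over all genes 102 windows are too few to expect one. Its absence there thus says nothing on the members. Of the 21, 4 are shown. They are the first named members, in order of mean difference, with a hexamer in a window that overlapped no annotated exon. Hpdl and Ucp3, also named and with a match, were passed over by that limit. The choice was made after the matches were seen. Slco4a1 (chr2:180460728-180460977, plus strand, ahead of the second of 2 RefSeq starts and within an intron in GENCODE), Gm826 (chr2:160327495-160327744, minus strand, within an intron of a longer GENCODE model), Proca1 (chr11:78193142-78193391, plus strand, outside genes) and Ucp1 (chr8:83290098-83290347, plus strand, outside genes) are written 5′ to 3′ in that order, the last base being next to the start, with the hexamer or its reverse complement in capitals.
Slco4a1: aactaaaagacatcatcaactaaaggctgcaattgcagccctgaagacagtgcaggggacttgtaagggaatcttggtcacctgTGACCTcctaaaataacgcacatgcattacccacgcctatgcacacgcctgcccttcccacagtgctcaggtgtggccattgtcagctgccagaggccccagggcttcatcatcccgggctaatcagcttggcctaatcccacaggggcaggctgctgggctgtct
Gm826: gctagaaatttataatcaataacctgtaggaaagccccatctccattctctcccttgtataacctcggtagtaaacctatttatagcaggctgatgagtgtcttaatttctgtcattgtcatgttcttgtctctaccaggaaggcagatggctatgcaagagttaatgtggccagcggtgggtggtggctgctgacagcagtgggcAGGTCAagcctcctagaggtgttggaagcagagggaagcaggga
Proca1: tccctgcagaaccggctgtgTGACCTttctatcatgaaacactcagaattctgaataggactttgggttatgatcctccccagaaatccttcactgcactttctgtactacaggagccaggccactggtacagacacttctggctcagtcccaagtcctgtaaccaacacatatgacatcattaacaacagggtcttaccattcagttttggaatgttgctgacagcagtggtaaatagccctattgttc
Ucp1: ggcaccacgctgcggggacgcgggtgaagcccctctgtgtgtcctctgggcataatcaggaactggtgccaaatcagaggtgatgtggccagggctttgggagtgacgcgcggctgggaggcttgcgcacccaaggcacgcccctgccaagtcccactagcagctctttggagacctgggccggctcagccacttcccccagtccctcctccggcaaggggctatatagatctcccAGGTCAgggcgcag

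In Ucp1 the hexamer began 14 bases before the start, in Gm826 44, in Slco4a1 166 and in Proca1 230.

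The rule fixes that each gene was higher at all 4 times in WT mice, and the genes differed in size and course. The median difference from the PTU group over the 131 genes came to 1.21, 1.46, 1.58 and 1.60 in the order of the times on the log2(CPM + 0.5) scale, while over all 9212 eligible genes it was 0.02, 0.04, -0.05 and 0.01. The highest group mean belonged to 3 h in 8 genes, to 6 h in 28, to 12 h in 33 and to 24 h in 62. In 55 genes all later differences stayed within 0.5 of that at 3 h, in 30 the difference at 24 h was at least 1 above that at 3 h, and in 4 it was at least 1 below its highest. The difference was at least 2-fold at all times in 77 genes and at least 4-fold in 16. In 113 genes each of the 16 treated mice was above each of the 4 PTU mice, where 4.28% of eligible genes had that pattern, and in 18 the mice overlapped. At the limit of 0.8, the lowest of the 4 differences was 0.80 in Proca1 and Trim16 and 0.81 in Efr3b, just inside, and 0.80 in Epn2 and Synj2 and 0.79 in Paox, just outside.

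**Figure D1:**
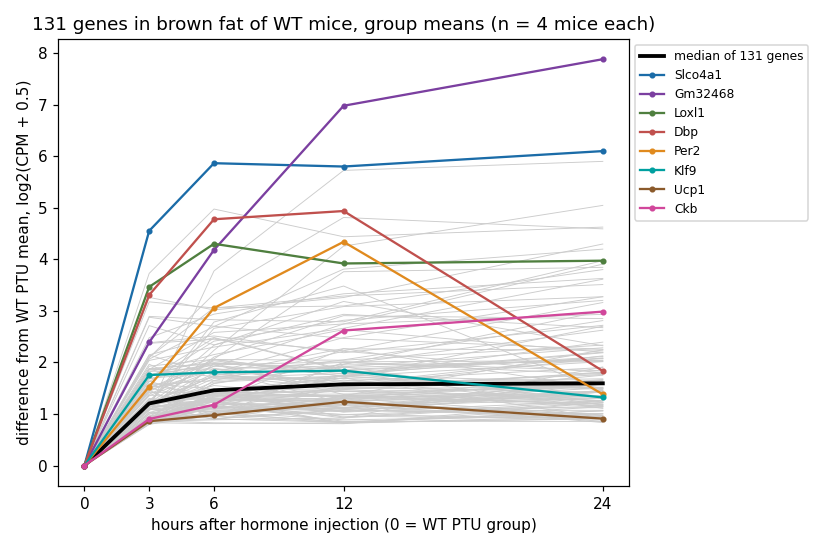
Differences of group means from the WT PTU mean in log2(CPM + 0.5) (vertical axis) against hours after the injection (horizontal axis, 4 mice in each group). Grey lines are the 131 genes, the black line their median, and coloured lines 8 named genes: Slco4a1 had 4.55 at 3 h and 6.10 at 24 h, Gm32468 climbed to 7.89, and Dbp and Per2 were lower at 24 h than at 12 h.

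Over the same WT groups the brown adipocyte markers other than Ucp1 went down. The 9 summed to 21498 to 23507 CPM under PTU, 18472 to 21848 CPM at 3 h, 19274 to 21354 CPM at 6 h, 13559 to 17248 CPM at 12 h and 11738 to 12711 CPM at 24 h. The mice at 12 and 24 h lay under all PTU mice. Nerve markers were at 558 to 631 CPM under PTU and at most 549 CPM in treated mice. At 3 h mast cell markers were at most 38.6 CPM, against 56.1 to 90.5 CPM under PTU. White adipocyte markers were then at 145 to 241 CPM against 256 to 287 CPM. Smooth muscle markers were higher then, at 647 to 720 CPM against 520 to 615 CPM. Endothelial markers were too, at 790 to 878 CPM against 706 to 788 CPM. The part of these sums in the members' values was not tested.

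The largest mean differences over the 4 times belonged to transport, matrix, clock and non-coding genes as well as signals. Slco4a1, an organic anion transporter that can carry TH, led at 5.58. It was at 0.481, 0.182, 0.519 and 0.519 CPM in the 4 PTU mice, at 32.7, 16.3, 10.5 and 33.8 CPM at 3 h, and at 57.8, 65.4, 62.3 and 63.5 CPM at 24 h. No treated mouse came near the PTU mice, which rested on at most 4 reads each. Gm32468, a long intergenic RNA on chromosome 10, followed at 5.36 by another course: from 0, 0.182, 0.259 and 0.173 CPM it was at 0.976 to 7.52 CPM at 3 h and at 197, 173, 95.3 and 165 CPM at 24 h. B430219N15Rik (4.44), at chr10:7780185-7781357 and 9030619P08Rik (4.13), at chr15:75427606-75431829, are little described. Loxl1 (3.92), an enzyme that cross-links elastin, went from 5.02 to 9.80 CPM to 71.7 to 116 CPM within 3 h.

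The next in order were Dbp (3.72), a clock output factor, Apln (3.71), the peptide ligand apelin, Hr (3.46), a nuclear corepressor that binds TH receptors, Slc40a1 (3.26), the iron exporter ferroportin, Fbxl2 (3.19), an F-box protein of ubiquitin ligases, Fndc5 (3.15), the precursor of irisin, and Trim67 (3.12), a TRIM family protein. Slc40a1 was at 14.4, 15.1, 12.5 and 15.2 CPM in PTU mice and at 225, 120, 120 and 96.8 CPM at 3 h, so its mice did not overlap. At 3 h alone the 8 largest differences were those of Slco4a1, B430219N15Rik, Loxl1, Dbp, Hr, Slc40a1, Trim67 and Dusp18, the last a dual-specificity phosphatase (2.88 at 3 h, 2.26 at 24 h).

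Transcriptional regulators gave 8 members out of 92 eligible genes of a list of transcription and chromatin genes, Hr, Id2, Bcl3, Klf13, Klf9, Foxo1 and Stat5a among them. Klf9, a zinc finger repressor, was at 147, 162, 176 and 143 CPM in PTU mice, at 615, 507, 474 and 539 CPM at 3 h and at 386, 351, 461 and 381 CPM at 24 h, with no overlap. Id2, which blocks basic helix-loop-helix factors, climbed from 16.9 to 24.9 CPM to 43.6 to 153 CPM at 3 h and 634, 405, 84.6 and 410 CPM at 24 h. Bcl3, a coregulator of NF-kappaB, had differences of 2.38 to 2.72. Foxo1, the insulin-restrained forkhead factor, was within 1.10 to 1.42 at the 4 times. Outside that list, the estrogen receptor gene Esr1, the forkhead gene Foxn3, the histone methyltransferase genes Dot1l and Prdm9, and the remodeller gene Chd3 were members.

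The clock list gave 3 of 19 eligible genes: Dbp, Per2 and the deubiquitinase gene Usp2. Dbp was at 0.801, 2.00, 11.8 and 2.42 CPM in PTU mice, at 137, 123, 102 and 59.0 CPM at 12 h, and back at 14.5, 11.9, 8.96 and 10.3 CPM at 24 h, where it overlapped the PTU mice. Per2, a core repressor of the clock, followed the same path, with a difference of 4.34 at 12 h and 1.38 at 24 h. Clock genes that were not members took several courses. Tef differed from PTU by 2.74 and Hlf by 2.29 at 12 h, and Arntl by -3.09 at 12 h and 0.21 at 24 h. Nr1d1 differed by 1.38 at 6 h and -0.33 at 12 h, Cry1 by -1.64 and -0.31, and Bhlhe40 by 1.53 at 6 h and 1.52 at 24 h, while Rora stayed at -0.63 to -0.31. Since the hour of collection is not given in the sources used here, time since injection and time of day cannot be told apart for these genes.

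Heat production was represented by 6 of 34 eligible genes of a thermogenesis list: Ucp1, Ucp2, Ucp3, Dio2, Ckb and Adcy10. Ucp1 was at 11340, 8941, 10270 and 12046 CPM in PTU mice and at 21079, 13964, 18629 and 24872 CPM at 3 h, and at 24 h it was at 15719 to 29820 CPM, so each treated mouse was above each PTU mouse by a modest margin. Dio2 was at 63.6, 228, 180 and 461 CPM under PTU and at 535, 907, 1030 and 936 CPM at 3 h. By 24 h its mice spread from 153 to 1336 CPM and overlapped. Ckb, the brain-type creatine kinase that can waste ATP in a creatine cycle, was slow: 2.72, 2.91, 2.59 and 2.60 CPM under PTU, 3.77 to 8.80 CPM at 3 h and 16.0 to 43.4 CPM at 24 h. Adcy10, the soluble adenylyl cyclase, went the same way, from 2.08 to 5.02 CPM to 30.1 to 41.6 CPM at 24 h. Ucp3, an uncoupling protein homologue also found in muscle, differed by 1.12 to 1.51, and Ucp2, its neighbour 6905 bases away, by 1.10 to 1.60. The muscle marker sum ran from 120 to 1270 CPM in PTU mice and from 6.24 to 3260 CPM over treated mice, and its part in Ucp3 and in Srl and Perm1, which muscle also expresses, was not tested.

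Metabolic members were spread over many routes. Amino acid genes gave 2 of 32, Got1 (cytosolic aspartate aminotransferase, 2.56) and Prodh (proline dehydrogenase, 2.25), and outside the list stood Aspg (an asparaginase, 3.10) and Hpdl (1.98). Got1 was at 28, 20.5, 21.3 and 23.5 CPM in PTU mice and at 215, 192, 323 and 206 CPM at 24 h. Fatty acid genes gave 2 of 43, Lipg (endothelial lipase) and Acot11 (a brown fat acyl-CoA thioesterase), glucose genes 1 of 37, Pfkfb1, and mitochondrial carriers and biogenesis genes 2 of 54, Slc25a33 and Slc25a42. Pank1, which starts coenzyme A synthesis, was among the 8 members with the highest level, as were Ackr3, a scavenger receptor for chemokines, and Acot11. Lists of lipogenesis (27 genes), triglyceride turnover (29) and cell cycle (12) gave no member.

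Transport, signal and matrix genes completed the picture. Plasma membrane transporters gave 4 of 32 (Slco4a1, the nucleoside transporter gene Slc29a1, the carnitine transporter gene Slc22a5 and the phosphate transporter gene Slc20a1). Iron handling was represented by both the exporter Slc40a1 and the uptake receptor Tfrc, which had its highest mean at 6 h (71.3, 87.2, 112 and 110 CPM, against 19.6 to 30.9 CPM under PTU). Secreted factors and receptors gave 3 of 52, and these held a ligand with its own receptor, Apln and Aplnr. Apln was at 1.28, 0.908, 0.649 and 0.692 CPM under PTU and at 36.0, 35.0, 46.5 and 34.7 CPM at 12 h. Aplnr, mainly of endothelial cells, was at 16.0, 16.7, 18.3 and 6.57 CPM under PTU and at 77.6, 30.9, 28.5 and 15.4 CPM at 3 h, and these mice overlapped. Signalling inhibitors gave 1 of 53 (Spred2) and cytoskeleton and matrix genes 2 of 50 (Loxl1, Tuba8). In all, 34 members were in at least 1 list and 97 in none. Mean levels over the 20 mice ran from 8.11 to 19515 CPM with a median of 44.0, against 34.1 CPM for all eligible genes.

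By annotation, 118 of the 131 were protein coding, 12 were not (5 long intergenic RNAs, 3 processed pseudogenes and 4 of other classes), and 1, listed as sept-09, is a symbol turned into a date that could not be placed. They lay on 20 chromosomes. In 7 pairs both genes were within 100 kb of each other, the closest being Rab34 and Proca1, with 1199 bases between them on the same strand, and Hr and Nudt18, with 4089. In 16 genes over 10% of the exon bases were shared with a gene on the opposite strand and in 2 (Pcdhgc3 and Sco2) with one on the same strand; the strand setting of the counting is not given in the sources used here, so reads of such pairs cannot be told apart.

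In BATKO mice given the same treatment, none of the set passed the test at 24 h under the labels as given. Slco4a1, again with the largest value, was at 0.246, 0.111, 4.17, 0.227 and 0 CPM in BATKO PTU mice and at 3.87, 11.6, 5.18, 0.117 and 0.549 CPM in BATKO TH mice, far under the 57.8 to 65.4 CPM of WT TH mice, and the 2 BATKO groups overlapped. Klf9 was at 107, 131, 205, 153 and 111 CPM against 226, 383, 266, 145 and 144 CPM. Hr was at 1.36 to 6.30 CPM against 1.37 to 8.16 CPM.

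The fit used the 10 BATKO mice only, none of which chose the genes. Of 126 members tested, 0 were called higher and 0 lower (edgeR quasi-likelihood test, Benjamini-Hochberg adjusted p under 0.05), and of 14854 genes tested 0 were called either way, a background of 0%. The lowest adjusted p of any gene was 0.944, and DESeq2 called 0 genes; 674 genes had an unadjusted p under 0.05 by edgeR and 601 by DESeq2. Among the members 10 had an unadjusted p under 0.05, all 10 of them higher with TH. The median log2 fold change was 0.28 over the members and -0.00 over all genes, and 107 of the 126 were above 0, against 49.6% of all genes. The median standard error was 0.25 (range 0.10 to 1.00), where the median WT difference that chose the genes was 1.60 at the same time.

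The largest log2 fold changes in BATKO mice were those of Slco4a1 (2.03, SE 1.00), Apln (1.82, SE 0.67), Slc40a1 (1.08), Prodh (0.98), Adcy10 (0.90) and Col27a1 (0.88), and the lowest those of Ankrd9 (-0.32), Desi1 (-0.29), Lgr6 (-0.21), sept-09 (-0.20), Abtb2 (-0.19) and Ucp3 (-0.18). None of these passed, and several turned on 1 mouse. Without the PTU mouse numbered 4 the median over members was 0.42, Slco4a1 reached 4.67 and Slc40a1 1.88. Without the TH mouse numbered 10 the median and Slco4a1 were 0.33 and 2.34, and without that numbered 15 they were 0.34 and 2.29. Without the TH mouse numbered 8 they were 0.20 and 1.25, and Prodh was 0.29 and Col27a1 0.58. With each of the 10 mice left out in turn, 0 members were called. No fit left out the PTU mouse numbered 4 and the TH mice numbered 10 and 15 together. Whether the count holds without all of them was not tested. On the scale that chose the genes, the BATKO difference at 24 h had a median of 0.27 (range -0.53 to 1.59), was 0.8 or more in 6 genes and under 0.4 in 94, and in 0 of 131 genes was it larger than the WT difference, a comparison that holds the WT values of the rule and has no test. Dio2 had the lowest of these, -0.53.

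**Figure D2:**
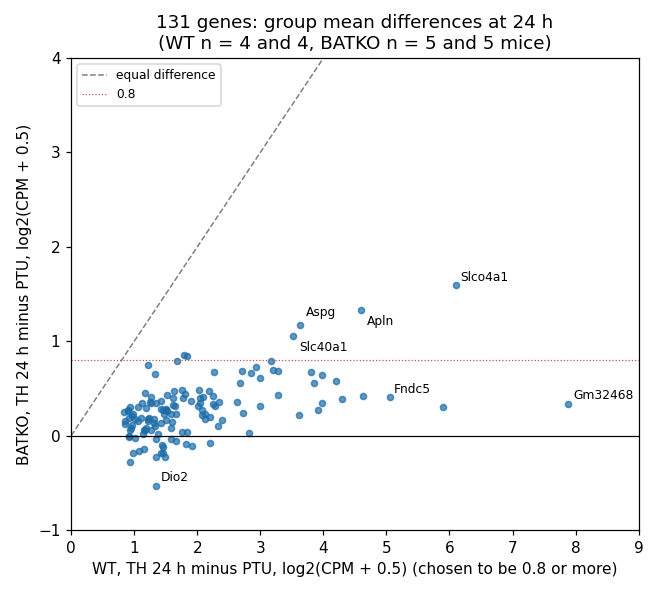
Each point is 1 of the 131 genes, with the difference of group means between TH at 24 h and PTU in WT mice (horizontal, 4 and 4 mice) and in BATKO mice (vertical, 5 and 5 mice), both in log2(CPM + 0.5). All points lie under the dashed line of equal difference, and 6 reach the dotted line at 0.8; the WT axis was used to choose the genes.

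Before TH the members were not uniformly shifted between genotypes. The BATKO PTU mean minus the WT PTU mean had a median of 0.06 over the members (range -3.07 to 4.94, 70 genes above 0) and of -0.45 over all eligible genes. The rule used these WT PTU values and favours genes low in those mice. That pushes the members' differences upward, so this comparison has no test. Ucp1 was at 2748, 1697, 2912, 1884 and 1981 CPM in BATKO PTU mice, under every WT PTU mouse, and Ackr3 had the lowest value, -3.07. Dbp was at 79.2, 128, 95.4, 130 and 82.4 CPM, above every WT PTU mouse, and Aqp1, a water channel of endothelium, at 149 to 257 CPM against 45.4 to 89.8 CPM. Marker sums differed too: brown adipocyte markers were at 31768 to 34848 CPM in WT and 18341 to 20869 CPM in BATKO PTU mice, white adipocyte markers at 256 to 287 CPM and 60.5 to 117 CPM, and Schwann cell and nerve markers at 558 to 631 CPM and 215 to 342 CPM. Without Ucp1, a member, the brown adipocyte markers were at 21498 to 23507 CPM in WT and 16297 to 18122 CPM in BATKO PTU mice. Endothelial markers were higher in BATKO PTU mice (706 to 788 CPM in WT and 839 to 945 CPM), as were smooth muscle markers (520 to 615 CPM and 620 to 722 CPM), and the part of these sums was not tested. The hour and any batch of collection are not given in the sources used here, so genotype cannot be told apart from them in these values.

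**Figure D3:**
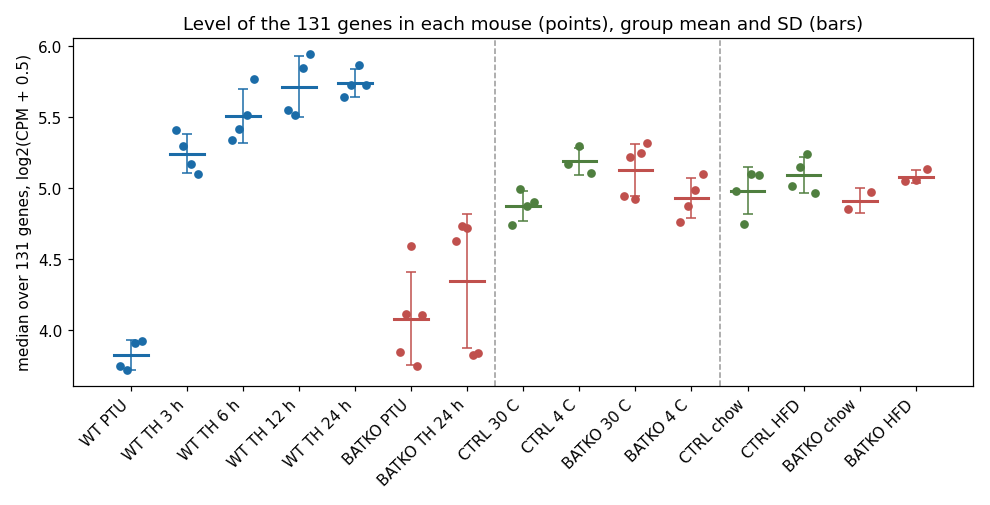
The median level of the 131 genes in each mouse (points, log2(CPM + 0.5)), with group means (thick bars) and SD (thin bars), for the 3 experiments separated by dashed lines. WT PTU mice lay between 3.72 and 3.93 and WT mice at 24 h of TH between 5.64 and 5.87, BATKO PTU and TH mice overlapped at 3.75 to 4.73, and all mice of the temperature and diet experiments lay between 4.74 and 5.32.

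Cold was the next question, since it raises both the activity of BAT and its conversion of T4. In CTRL mice, 4 °C moved many of the 131 genes, most of them in the same direction as TH. Ucp1 was at 348, 1749, 1575 and 2678 CPM at 30 °C and at 26481, 25270 and 21689 CPM at 4 °C. Lgr6, a stem cell receptor for R-spondins, was at 21.1, 17.4, 26.7 and 36.0 CPM and at 265, 262 and 272 CPM. Slco4a1 was at 5.89, 15.5, 9.52 and 18 CPM and at 63.1, 57.5 and 57.6 CPM, beside 57.8 to 65.4 CPM in the separately scaled WT mice at 24 h of TH. None of these groups overlapped.

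Of 129 members tested, 64 (49.6%) were called higher at 4 °C and 17 (13.2%) lower, where 26.5% of all 13267 genes were called higher and 22.6% lower (edgeR, adjusted p under 0.05). The median log2 fold change was 0.74 over the members and -0.01 over all genes, and in CPM the groups did not overlap in 51 of the 64 and 15 of the 17, where 13.1% of 13250 genes had all 4 °C mice above and 44.9% all below. The largest rises were those of Cend1, a neuronal differentiation protein (6.15, SE 0.51, edgeR adjusted p = 1.96e-07), Ucp1 (4.40, SE 0.52), Acot11 (4.31, SE 0.48) and Aspg (4.11, SE 0.31). Of the thermogenesis members 5 of 6 rose, Ucp2 at 0.69 being the exception (adjusted p = 0.0595), where 24 of the 41 genes of that list tested rose and 6 fell. Dio2 rose by 3.83, Ckb by 3.43 and Adcy10 by 4.03, and Got1, Perm1 and Loxl1 by 3.18, 3.14 and 3.48. With each of the 7 CTRL mice left out in turn, 56 of the 64 rises and 11 of the 17 falls were called every time. The brown adipocyte marker sum was 14395 to 16471 CPM at 30 °C and 42885 to 49403 CPM at 4 °C. Ucp1, a member, is in that sum, and the other 9 markers summed to 12820 to 14682 CPM and 21196 to 23218 CPM. Their part in the members' changes was not tested; in bulk tissue fewer cells of a type and less RNA in each of them cannot be told apart.

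These fold changes carry TMM factors, the scaling of edgeR that centres most genes on no change, and the CPM levels do not, so in the temperature experiment the scales differ. Scaled on library totals without mt- genes as CPM is, an alternative chosen after seeing the data, the fold changes of all genes between 4 °C and 30 °C moved by a median of -0.49 in CTRL mice and -0.30 in BATKO mice. In CTRL mice 50 members were then called higher and 32 lower, against 13.1% and 45.6% of all genes, with a median of 0.25 over members and -0.51 over all genes. All 50 were among the 64 rises with TMM and all 17 falls with TMM were among the 32, and no member was called in opposite directions by the 2 scalings. The 14 rises lost had been 0.60 to 1.41 with TMM, Tnk2, Cxcl14, Akt1, Rab34 and Il15ra among them.

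Other TH genes fell in cold or did not pass. The largest falls were those of Aplnr (-3.31, SE 0.49), Aqp1 (-2.65, SE 0.33), Dbp (-2.41, SE 0.32) and Pcdhgc3 (-2.0, SE 0.46). Aplnr went from 91.2, 87.7, 59.6 and 23.4 CPM to 6.95, 3.86 and 2.95 CPM, and Aqp1 from 571 to 710 CPM to 65.6 to 81.9 CPM, with no overlap. The sum of 8 endothelial markers was 1233 to 1643 CPM at 30 °C and 991 to 1183 CPM at 4 °C. Fibroblast markers went from 1110 to 1438 CPM to 672 to 760 CPM, smooth muscle markers from 917 to 1288 CPM to 653 to 700 CPM, mast cell markers from 92.7 to 125 CPM to 11.1 to 27.5 CPM, macrophage markers from 148 to 299 CPM to 86.6 to 111 CPM and lymphocyte markers from 7.00 to 13.2 CPM to 1.74 to 3.48 CPM. None of these sums overlapped between the groups, and their part was not tested. In CPM 44.9% of 13250 genes had all 4 °C mice below all 30 °C mice. The median log2 fold change of all genes on library totals was -0.51. Tfrc fell by 1.43 on the log2 scale (adjusted p = 0.0349), and this call was lost when any of 5 of the 7 mice was left out; the CTRL mouse numbered 19 was at 34.2 CPM and the other 3 at 261 to 309 CPM, and erythroid markers summed to 398 to 792 CPM at 30 °C and 1239 to 2688 CPM at 4 °C. Esr1 (-1.86), Rbm38 (-1.99) and Per2 (-1.25) fell too. Of 20 clock genes tested 10 fell and 4 rose, with a median of -0.76, and since the hour of collection is not given in the sources used here for cold either, temperature and time of day cannot be told apart for Dbp and Per2. Klf9 was at 369, 256, 285 and 304 CPM at 30 °C and 174, 208 and 323 CPM at 4 °C (0.12, SE 0.20, edgeR adjusted p = 0.631, and -0.37, adjusted p = 0.141, on library totals), and of the 8 transcription members Bcl3 alone rose (2.02), while 21 of 110 tested genes of that list rose and 41 fell.

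**Figure D4:**
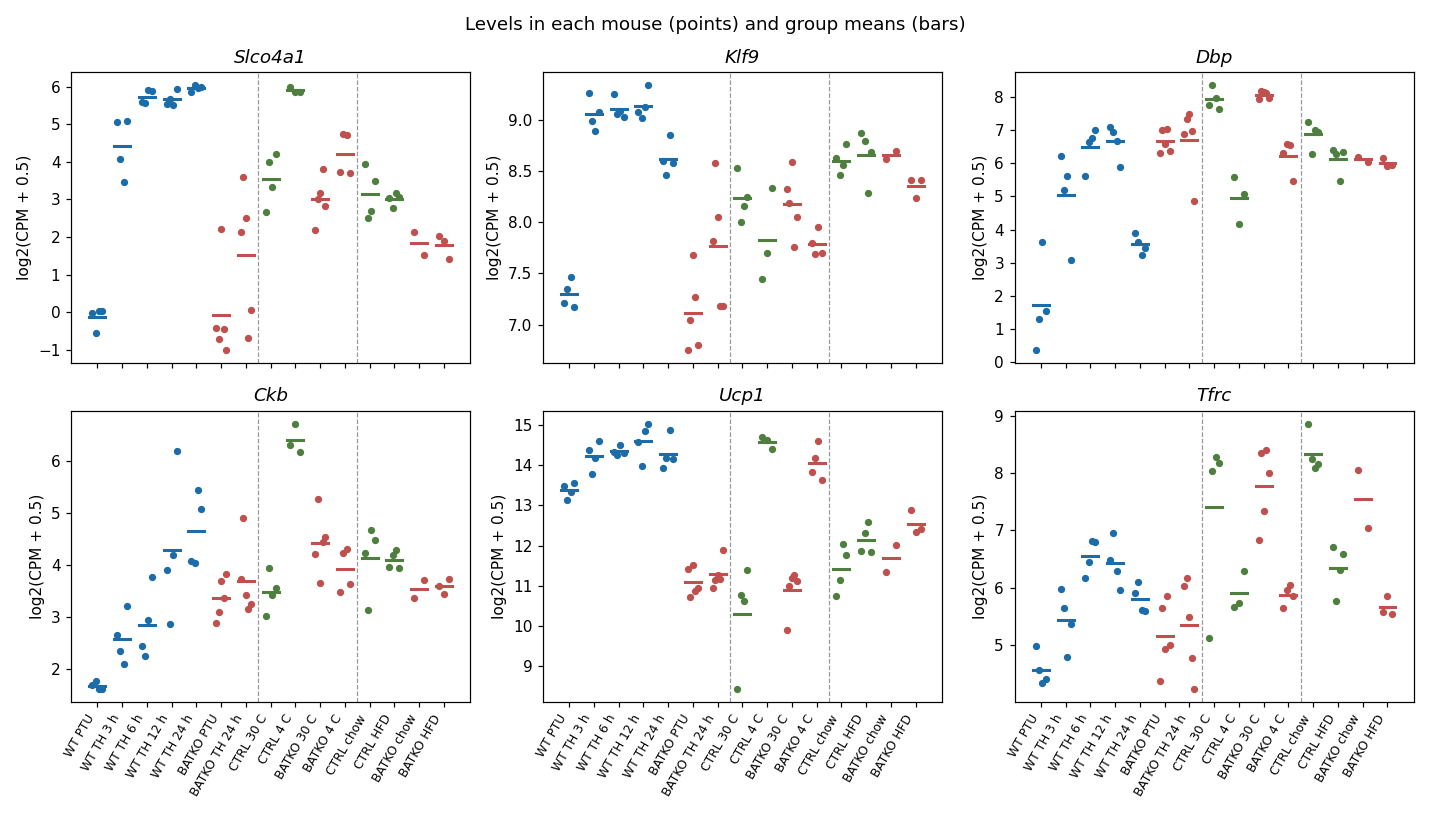
Levels of Slco4a1, Klf9, Dbp, Ckb, Ucp1 and Tfrc in log2(CPM + 0.5), 1 point for each mouse and a bar for each group mean, with dashed lines between the 3 experiments. Slco4a1 and Ucp1 were high both after TH in WT mice and at 4 °C, and Klf9 after TH but not at 4 °C. Dbp lay lower at 4 °C than in the warmer mice. Its mean at 4 °C was 32.8 CPM in CTRL and 77.7 CPM in BATKO mice, and its WT group means after TH ran from 11.4 to 105 CPM. Ckb was high at 4 °C in CTRL mice but not in BATKO mice, and Tfrc lay lower with HFD than with chow.

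BATKO mice at 4 °C raised fewer of the 131 genes. Of 129 tested, 36 (27.9%) were called higher and 28 (21.7%) lower, against 21.4% and 18.9% of all genes, shares closer to the background than in CTRL mice. The median log2 fold change was 0.10 and that of all genes -0.02. On library totals 28 were called higher and 40 lower, against 11.2% and 36% of all genes, and the median turned to -0.18, beside -0.32 over all genes. With TMM the median ran from 0.04 without the BATKO mouse at 30 °C numbered 13 to 0.18 without that numbered 17. Cend1 (4.19, SE 0.42), Gm826 (3.59, SE 0.29), Ucp1 (3.43, SE 0.44) and Dio2 (3.21, SE 0.80) rose most, and Aplnr (-2.34, SE 0.39), Rbm38 (-2.27, SE 0.27), Hr (-2.19, SE 0.66) and Aqp1 (-1.91, SE 0.28) fell most. Ucp1 was at 959, 2039, 2335, 2446 and 2243 CPM at 30 °C and at 14589, 18512, 24681 and 12650 CPM at 4 °C, without overlap. In the 9 fits that left out 1 BATKO mouse, 32 of the 36 rises and 17 of the 28 falls were called every time. Endothelial markers summed to 1455 to 1901 CPM at 30 °C and 884 to 1298 CPM at 4 °C, and brown adipocyte markers without Ucp1 to 13709 to 15653 CPM and 21003 to 25194 CPM. Smooth muscle (1045 to 1364 CPM and 641 to 946 CPM), mast cell (88.9 to 122 CPM and 22.7 to 64.2 CPM), white adipocyte (223 to 475 CPM and 83.5 to 191 CPM), nerve (334 to 526 CPM and 538 to 603 CPM) and erythroid markers (380 to 1096 CPM and 1339 to 1998 CPM) did not overlap either, and the part of these sums was not tested.

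Set side by side, 36 members (27.9%) rose in both genotypes, where 17.4% of all genes did, with a median log2 fold change of 2.26 in CTRL and 1.29 in BATKO mice. Another 26 (20.2%) passed the test as higher in CTRL mice without passing in BATKO mice, against 9.02% of all genes, 13 (10.1%) fell in both, against 13.6%, 4 (3.1%) fell in CTRL mice without passing in BATKO mice, against 8.93%, and 35 (27.1%) passed in neither, against 41.8%. A further 13 (10.1%) passed in BATKO mice alone, all of them lower, where 5.18% of all genes passed so and 3.93% as higher, and these held several of the strongest TH genes: Hr, Apln (-1.85), Slc40a1 (-1.42) and Id2 (-0.73). Apln was at 5.81, 13.2, 5.37, 15.7 and 19.1 CPM in BATKO mice at 30 °C and at 3.64, 2.2, 3.24 and 1.58 CPM at 4 °C, without overlap, and at 4.18 to 8.63 CPM and 4.52 to 4.69 CPM in CTRL mice, where it did not pass (-0.04, SE 0.44). The remaining 2, the neighbours Rab34, a small GTPase of cilia and the Golgi, and Proca1, rose in CTRL mice (0.75 and 0.79) and fell in BATKO mice (-0.64 and -0.48), but Rab34 passed in CTRL mice neither on library totals (0.25) nor without the mouse at 4 °C numbered 1 (0.39, edgeR adjusted p = 0.183), and its BATKO call was lost without the mouse at 30 °C numbered 16 or the mice at 4 °C numbered 7, 8 or 11. Proca1 was called in all such fits. On that scale 28 rose in both genotypes, 21 in CTRL mice without passing in BATKO mice, 24 fell in both and 15 fell in BATKO mice alone, where 8.29%, 4.77%, 30.5% and 5.43% of all genes did, and Hr was called lower in CTRL mice too. A pass in one genotype alone does not show that the genotypes differed, which was tested as an interaction.

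**Figure D5:**
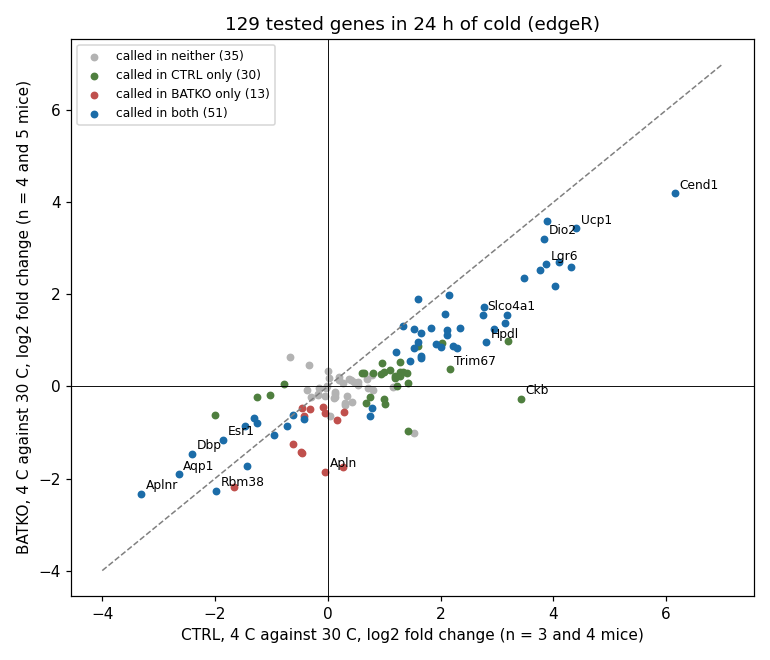
Log2 fold changes between 4 °C and 30 °C for the 129 members tested, in CTRL mice (horizontal, 3 and 4 mice) and BATKO mice (vertical, 4 and 5 mice), coloured by whether edgeR called them in neither genotype (35), in 1 (30 and 13) or in both (51). Most points that rose in CTRL mice lie under the dashed line of equal change, with Ckb the farthest from it.

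The interaction of genotype and temperature was negative in most members. Ckb was at 7.60, 15.0, 10.3 and 11.4 CPM in CTRL mice at 30 °C and at 78.9, 105 and 72.2 CPM at 4 °C, but at 18.1, 38.2, 12.2, 21.5 and 22.9 CPM and 10.7, 18.5, 19.5 and 11.9 CPM in BATKO mice. The CTRL groups did not overlap and the BATKO groups did. Proca1 was at 78.9, 91.8, 79.7 and 101 CPM and 100, 107 and 119 CPM in CTRL mice, and at 92.8 to 106 CPM and 52.3 to 70.7 CPM in BATKO mice. Hpdl, a mitochondrial dioxygenase-like protein, was at 4.37 to 8.40 CPM and 30.8 to 36.7 CPM in CTRL mice, and at 7.93 to 11.8 CPM and 12.4 to 20.6 CPM in BATKO mice, so cold raised it in both, by less in BATKO mice.

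In that test 0 members were called with a larger cold change in BATKO mice and 8 (6.2%) with a smaller or opposite one, where 0.317% and 0.807% of all genes were called: Ckb (-3.70, SE 0.44, edgeR adjusted p = 0.000969), Hpdl (-1.84, SE 0.32), Trim67 (-1.79, SE 0.32), Rab34 (-1.39), Ciapin1, of iron-sulphur cluster assembly (-1.34), Proca1 (-1.27), Zfp691 (-1.05) and Tecpr1, of autophagy (-0.91). The median over members was -0.63 and over all genes -0.02, and 22 of 129 were above 0, against 48.2% of all genes. Ckb and Proca1 were called in all 16 fits that left out 1 mouse. The count turned on single mice: it was 2 without the CTRL mouse at 4 °C numbered 1 or that numbered 2, 18 without that numbered 5, 15 without the BATKO mouse at 30 °C numbered 13, 3 without the CTRL mouse at 30 °C numbered 21, and 4 or 5 without any of 8 others (CTRL at 30 °C numbered 19 and 20, BATKO at 30 °C numbered 14, 16 and 17, BATKO at 4 °C numbered 7, 8 and 12). By DESeq2 it was 30, against 5% of 10138 genes called lower and 1.95% higher, and on library totals it was 4, Ckb, Hpdl, Proca1 and Trim67, against 0.339% of all genes called lower and 0.715% higher, with a median of -0.43 over members and 0.18 over all genes.

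Between genotypes at the same temperature, 0 members were called higher and 15 (11.6%) lower in BATKO than in CTRL mice at 4 °C, against 0.957% and 1.2% of all genes. Ckb (-2.65, SE 0.32, edgeR adjusted p = 0.000677), Slco4a1 (-1.77, SE 0.39), Fbxl2 (-1.76, SE 0.35) and Aspg (-1.30, SE 0.28) were farthest down. Slco4a1 was at 12.8, 26.2, 25.7 and 12.4 CPM in BATKO mice, all under the 57.5 CPM of the lowest CTRL mouse, and Fbxl2 at 0.915 to 4.16 CPM against 8.30 to 10.6 CPM. The others were Hpdl, Loxl1, Ntrk2, Lgr6, Slc7a6, Trim67, Proca1, AC122442.1, Zfp691, Sco2 and Tecpr1. Leaving out the CTRL mouse numbered 2 left 4 calls, that numbered 1 left 5 and the BATKO mouse numbered 12 left 9, and Ckb and Proca1 were called in all 7 such fits. By DESeq2 4 were called higher and 27 lower, against 1.64% and 3.48% of all genes, and 7 of the 15 were called by edgeR and DESeq2 under all 6 planned settings of scaling, filter, test and samples in which they were tested. On library totals 14 of the 15 stayed, all but Sco2, and Aqp1, Dbp, Desi1 and Per2 were called higher, against 0.753% of all genes called lower and 2.39% higher. At 30 °C 0 members were called either way, against 0.00754% and 0% of all genes; by DESeq2 0 were called, and 21 had an unadjusted p under 0.05 by edgeR, 20 of them higher in BATKO mice, where 9.11% of all genes had such a p and 55.3% of all genes were above 0. The median was -0.36 at 4 °C and 0.20 at 30 °C. These comparisons share mice with the interaction and are not separate evidence.

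Diet moved few of the genes. In CTRL mice Lgr6 was at 34.9, 31.1, 45.4 and 46.3 CPM on chow and at 82.5, 93.4, 139 and 81.4 CPM on HFD, and Trim67 at 25.9 to 39.2 CPM and 57.9 to 113 CPM, without overlap. Tfrc went the other way, from 463, 303, 271 and 284 CPM to 105, 53.7, 78.4 and 95.6 CPM, also without overlap. Of 125 members tested 9 (7.2%) were called higher and 2 (1.6%) lower, where 1.89% and 2.04% of 12932 genes were called. DESeq2 called 15 and 5, against 3.49% and 3.24% of its genes.

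Loxl1 (1.46, SE 0.35), Trim67 (1.43, SE 0.26), Lgr6 (1.35, SE 0.18) and Efr3b, a plasma membrane scaffold protein (1.29, SE 0.23), rose most, and sept-09, Gm826, Slc25a42, Sco2 and Rab34 rose by 0.54 to 1.13. Tfrc (-1.97, SE 0.24, edgeR adjusted p = 0.000943) and the ubiquitin-like gene Midn (-0.69, SE 0.12) fell. Lgr6, Trim67 and Efr3b, and both falls, were called in all 8 fits that left out 1 CTRL mouse. The 9 rises became 3 without the chow mouse numbered 2 and 5 without the chow mouse numbered 4 or the HFD mice numbered 9 or 11, and the 2 falls became 5 without the HFD mouse numbered 9. Without the CTRL HFD mouse numbered 10 the fold change of Loxl1 was 0.82, under those of the other 3. In Loxl1 that mouse was at 89.8 CPM and the other 3 at 25.0 to 30.3 CPM, against 11.7 to 17.6 CPM on chow, and 8 fibroblast markers summed to 1053 to 1687 CPM on chow and 1836 to 2305 CPM on HFD. Brown adipocyte markers (15862 to 19314 CPM and 19640 to 23754 CPM), macrophage markers (139 to 163 CPM and 177 to 478 CPM) and mast cell markers (62.3 to 114 CPM and 26 to 55.7 CPM) did not overlap either, and the part of these sums was not tested. Without Ucp1, a member, the brown adipocyte markers did overlap, at 13605 to 15942 CPM and 15568 to 18286 CPM. All 9 members that rose on HFD, out of 64 that rose in cold, were called higher in CTRL mice at 4 °C, as were 115 of the 237 genes called higher on HFD and tested in both (48.5%), Rab34 in neither comparison on library totals. Slco4a1 (-0.25, SE 0.30), Klf9 (0.10, SE 0.12) and Hr (0.21, SE 0.41) did not pass.

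In BATKO mice on HFD, 1 member was called higher and 1 lower, where 0.0309% and 0.0387% of all genes were called. They were Lgr6 (1.66, edgeR adjusted p = 0.0233), at 38.8 and 37.4 CPM on chow and 112, 131 and 104 CPM on HFD, and Tfrc (-1.92, adjusted p = 0.0383), at 265 and 131 CPM and 47.2, 57.2 and 46.3 CPM. DESeq2 called 4 and 3, against 1.39% and 1.5% of its genes. Between the same groups brown adipocyte markers without Ucp1 went from 15523 to 16608 CPM to 17535 to 18004 CPM, macrophage markers from 318 to 388 CPM to 150 to 278 CPM and mast cell markers from 69.5 to 69.8 CPM to 24.4 to 42.2 CPM. Erythroid (885 to 952 CPM and 1115 to 2221 CPM), smooth muscle (1004 to 1201 CPM and 1223 to 1389 CPM), lymphocyte (7.03 to 7.85 CPM and 3.46 to 4.64 CPM) and nerve markers (355 to 359.6 CPM and 360.3 to 415 CPM) did not overlap either, and their part was not tested. With 2 mice on chow, each was called in 1 of the 5 fits that left out 1 BATKO mouse, Lgr6 without the HFD mouse numbered 12 and Tfrc without the chow mouse numbered 6, where the 1 chow mouse left is taken to vary like the other groups of the fit. Between BATKO and CTRL mice edgeR called 0 members on HFD and 0 on chow, and 0% of all genes (691 and 1024 genes at an unadjusted p under 0.05), while DESeq2 called 1 member lower on HFD and 0 on chow, among 13 and 31 genes called (0.086% lower and 0.0737% higher on HFD), and the interaction of genotype and diet called 0 members and 0 genes (740 genes had an unadjusted p under 0.05 by edgeR and 603 by DESeq2, which called 0 genes). A pass in CTRL mice alone was thus not shown to differ from BATKO mice.

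Over all 11 comparisons outside the WT time course, 37 of the 131 genes (28.2%) were called in none by edgeR with TMM, against 36.3% of the 9212 eligible genes. Klf9, Klf13 and Foxo1 were among the 37. So were Stat5a, Ucp2, Pde8a, Usp2 and Gm32468, which passed in some comparison under another filter, scaling, test or choice of samples. Gm32468 was at 8.87, 3.09 and 7.64 CPM in CTRL mice at 4 °C and at 0 to 0.747 CPM at 30 °C, and it was too low to be tested in the temperature experiment. In all, 7 genes fell under the limit of a mean normalised count of 10 in at least 1 experiment, and 124 were tested in every comparison. The receptor genes Thra and Thrb, not members, were called in none of these comparisons but the BATKO cold comparison, where Thra fell by 0.60 on the log2 scale (edgeR adjusted p = 0.0190). Thrb was lower in BATKO than in CTRL mice by -1.05 on HFD (SE 0.17, edgeR adjusted p = 0.139), -0.54 on chow, -0.45 at 30 °C and -0.22 at 4 °C, none of which passed.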

How the data were processed

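RNA from BAT of 59 mice was sequenced by the authors from total RNA libraries (SENSE kit, NextSeq 500). Per the methods of the study, reads were aligned to GRCm38 (mm10) with Bowtie (the submitters' processing notes name Bowtie2 2.3.2.2), reads with an alignment quality under 10 were removed, and htseqcount gave reads per gene; annotation and strand setting are not given in the sources used here. The raw counts per gene were used as deposited, in 3 tables, and 0 columns were left without a sample. The 2 closest libraries differed by more than sampling noise, so none was merged. Precision is limited by 7612059 to 18073627 counts per mouse and 2 to 5 mice per group, and ranges cover these mice only.

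The 131 members and the gene lists were chosen with earlier results of these data known. CPM used totals without mt- genes and a pseudocount of 0.5 on the log2 scale. Comparisons were fitted on the counts with edgeR 4.0.16 (limma 3.58.1, R 4.3.3; TMM, quasi-likelihood test, a normalized count averaging above 10 in the mice fitted, Benjamini-Hochberg over all genes tested, adjusted p under 0.05, no fold limit), with 1 fit for the 10 BATKO mice of the TH experiment and 1 with all groups for each other experiment. The code was tested on simulated data. Named genes were the 12 largest mean differences, the 8 largest at 3 h, the 3 on each side of the limit, the 6 highest and lowest in BATKO mice given TH, up to 4 called rises and falls in each temperature and diet comparison, the 8 highest levels and up to 4 examples for each list; other members named in a sentence on a comparison or a list, and the genes whose values are set beside them, were chosen after their values were seen. Alternatives were DESeq2 1.42.0, its size factors, no filter on the mean count, fits of the compared groups alone, leaving out each mouse, library totals without mt- genes in place of TMM (chosen after seeing the data), and other settings of the rule. WT mice entered no test of change with TH. They were in an alternative fit of the BATKO comparison with all mice of the TH experiment. They were also in Dixon's test for single mice that stood apart.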

Additional observations from a re-analysis of the deposited data

Results flagged for a closer look

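In 12 of 156 groups of 4 or 5 mice examined for 12 genes and the members' median, the highest or lowest mouse stood apart from the others by Dixon's test at the 95% level, where chance gives about 1 in 20. All values are log2(CPM + 0.5). In WT PTU mice Slco4a1 was lowest in the mouse numbered 3 (-0.55), where all PTU mice held only a few reads, and Aplnr in that numbered 5 (2.82). In WT mice at 12 h Apln was highest in the mouse numbered 21 (5.56) and Lgr6 lowest in that numbered 20 (4.71). Among BATKO mice given PTU, Slco4a1 was highest in the mouse numbered 4 (2.22) and Dio2 in that numbered 17 (5.64), and among BATKO mice given TH, Dbp was lowest in that numbered 15 (4.85). At 30 °C Tfrc was lowest in the CTRL mouse numbered 19 (5.12) and Ucp1 in the BATKO mouse numbered 13 (9.91). In the diet experiment Loxl1 was lowest in the CTRL chow mouse numbered 1 (3.61) and highest in the CTRL HFD mouse numbered 10 (6.50), in which Dbp was lowest (5.46).

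The change between 4 °C and 30 °C differed between genotypes by the interaction test (edgeR, adjusted p under 0.05) in 8 members, all with a lower log2 fold change in BATKO mice. The differences were -0.91 in Tecpr1, -1.05 in Zfp691, -1.27 in Proca1, -1.34 in Ciapin1, -1.39 in Rab34, -1.79 in Trim67, -1.84 in Hpdl and -3.70 in Ckb. On library totals in place of TMM, Ckb, Hpdl, Trim67 and Proca1 passed and the other 4 did not.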

How the results depend on the processing

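No paired analysis was possible because the groups compared within a genotype share no mouse numbers, and nothing in the labels ties equal numbers of different groups to one litter or day. For each comparison the numbers of members called higher and lower with 1 mouse left out ran from 57 to 67 and 13 to 17 in CTRL cold, 32 to 40 and 19 to 30 in BATKO cold, 0 to 1 and 4 to 19 between genotypes at 4 °C, 0 to 1 and 2 to 18 for genotype by temperature, 3 to 13 and 2 to 5 for CTRL HFD, and 0 to 1 both ways for BATKO HFD. Between genotypes on HFD it was 0 to 1 lower, and in the other comparisons, BATKO TH included, 0 throughout. The median over members in CTRL cold ran from 0.62 to 0.80 and in BATKO cold from 0.038 to 0.18. The number of genes that met the rule ran from 116 to 150 with 1 WT mouse left out, and 89 of the 131 met it in all 20 such runs. It was 77 with a limit of 1 in place of 0.8.

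DESeq2 called more members and more genes: 4 higher and 27 lower between genotypes at 4 °C, 30 lower for genotype by temperature, 15 and 5 in CTRL HFD, 4 and 3 in BATKO HFD, and 1 lower between genotypes on HFD. With no filter on the mean count there were 2 higher between genotypes at 4 °C, 21 and 6 in CTRL HFD, 11 and 3 in BATKO HFD, 1 and 5 between genotypes on HFD, 1 and 5 on chow, and 1 and 2 for genotype by diet. Fits of the compared groups alone gave 5 higher in CTRL HFD, 2 lower in BATKO HFD and 1 higher between genotypes on chow. Scaling on library totals without mt- genes in place of TMM, chosen after seeing the data, gave 32 lower in CTRL cold, 4 higher between genotypes at 4 °C and 4 lower for genotype by temperature, and turned the members' median in BATKO cold to -0.1814; all genes moved with it. For the others the cause was not tested. In BATKO mice given TH, 3 small log2 fold changes changed sign: Ucp3 (-0.35 to 0.024) was 0.013 without the PTU mouse numbered 2 and 0.024 without the TH mouse numbered 8, Abtb2 (-0.34 to 0.014) was 0.014 without the TH mouse numbered 10, and Lgr6 (-0.43 to 0.0065) was 0.0065 without the PTU mouse numbered 4. Of the other values recomputed, 354 of single genes with 1 mouse left out and 295 under other alternatives kept their direction and side of the threshold, and 39 and 4 kept their direction only.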
